A study of Mus musculus with 6 samples.

Results

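The 9 genes described here carry lipids into, through and out of cells, and were taken by symbol from the 32285 genes listed in each hippocampal library: Lpl, Fabp5, Lipa, Npc1, Npc2, Soat1, Plin2, Abca1 and Abcg1. All 9 were found, once each. They were followed in 3 groups of 6-month-old mice with 2 samples each: Aβ3FTnAu-treated 5×FAD mice (5xFAD_Ab3FTnAu), 5×FAD mice that received PBS (5xFAD_PBS) and their wild-type littermates, which received PBS too (WT_PBS). In the 5×FAD line, transgenes for human amyloid precursor protein and presenilin with familial Alzheimer's disease mutations are driven by the neuronal Thy1 promoter, and amyloid plaques build up. Aβ3FTnAu is, from the series title, a nanostructure of protein and gold directed at such plaques. Wild-type mice given Aβ3FTnAu are not among the samples analysed here. Dose, route, sex and whether a sample pooled animals are not given in the sources used here, so p-values measure the spread between samples, which may be technical.

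Cells meet fat at several points. Lipoprotein lipase (Lpl) frees fatty acids from lipoproteins, and the binding protein Fabp5 carries them inside the cell. Acid lipase (Lipa) splits lipoprotein lipids in the lysosome, and Npc2 hands the freed cholesterol to Npc1 for export from it. Soat1 turns cholesterol into esters for storage, Plin2 coats the droplets that hold them, and Abca1 and Abcg1 move cholesterol out to apolipoproteins and lipoprotein particles. In the brain, microglia take up myelin and plaque lipid, astrocytes supply neurons with cholesterol on Apoe, and oligodendrocytes hold cholesterol in myelin.

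RNA was counted as unique molecular identifiers (UMIs) per barcode, and cells of 4 classes were set by UMIs of fixed marker genes that include none of the 9. A cell joined a class when that class's markers made up at least 0.5% of its UMIs, with 3 distinct markers. Any other list had to stay under 0.5% or short of 3 distinct markers, and genes of border macrophages and other leukocytes excluded no cell. Of 41656 cells kept, 844 were microglia, 1006 astrocytes, 3249 oligodendrocytes and 34664 neurons. Between 0.4% and 0.6%, near the threshold, lay 31 cells for microglia, 16 for astrocytes, 15 for oligodendrocytes and 300 for neurons. Libraries held 32528417 to 76780861 UMIs, and a median of 3957 to 5131 UMIs per kept cell. The 10 genes with the highest fold in microglia included 2 of the microglia list and none of any other, with 3, 7 and 0 own markers among the 10 for astrocytes, oligodendrocytes and neurons. Csf1r, Cx3cr1 and P2ry12 were detected in the microglia of all 6 samples. They and the own markers counted above belong to the lists that set the classes, so their presence is no test of the classes. Levels below are in CPM, a gene's UMIs scaled to the total UMIs summed over a class in a sample, and fold changes are log2 with their SE from 1 edgeR fit of all 6 samples per class, called at an adjusted p under 0.05.

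Several features of the libraries moved with the groups. Microglia made up 0.534% and 1.41% of kept cells for 5xFAD_Ab3FTnAu, 5.74% and 4.18% for 5xFAD_PBS, and 0.872% and 0.961% for WT_PBS. The cells numbered 35 and 78, 266 and 307, and 106 and 52, in that order of groups. Their median depth was 1145 to 1299 UMIs, just above the filter of 1000. Among all barcodes, before filtering, 66.6% and 65.8% of 5xFAD_Ab3FTnAu, 22.7% and 17.9% of 5xFAD_PBS, and 57.4% and 30.1% of WT_PBS had no mitochondrial UMI. The WT_PBS samples differed from each other far more than those of the other groups, at a chi-square of 69.5 for each degree of freedom over gene counts, while the pair of 5xFAD_Ab3FTnAu gave 8.02 and that of 5xFAD_PBS 6.70. Library pairs shared 9 to 45 barcode sequences. In microglia, the 12 genes of border macrophages and other leukocytes summed to 0 and 58.2 CPM in 5xFAD_Ab3FTnAu, 31.5 and 38.9 CPM in 5xFAD_PBS, and 338 to 435 CPM in WT_PBS, with 6 of the 12, among them Cd3e and S100a8, at 0 in every sample. The 18 neuron markers summed to 1673 ± 253 CPM in 5xFAD_Ab3FTnAu microglia, 1041 ± 132 CPM in 5xFAD_PBS and 1781 ± 215 CPM in WT_PBS (SD, n = 2 each), and their part in the results was not tested.

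Of the 9 genes, Lpl was the one that passed the test in any class. In microglia, Lpl (chromosome 8, 68880491 to 68907448 in GRCm38, plus strand) stood at 141 and 97.0 CPM in 5xFAD_Ab3FTnAu, 257.5 and 250.3 CPM in 5xFAD_PBS, and 0 and 15.4 CPM in WT_PBS. The 3 groups did not overlap: 5xFAD_PBS was the highest, 5xFAD_Ab3FTnAu lay between, and WT_PBS was near 0. Of all tested genes, 26.5% lay without overlap above WT_PBS in 5xFAD_PBS and 25.4% in 5xFAD_Ab3FTnAu, and 21.0% lay below 5xFAD_PBS in 5xFAD_Ab3FTnAu. The values rest on 16 UMIs in 5xFAD_Ab3FTnAu, 201 in 5xFAD_PBS and 1 in WT_PBS.

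**Figure D1:**
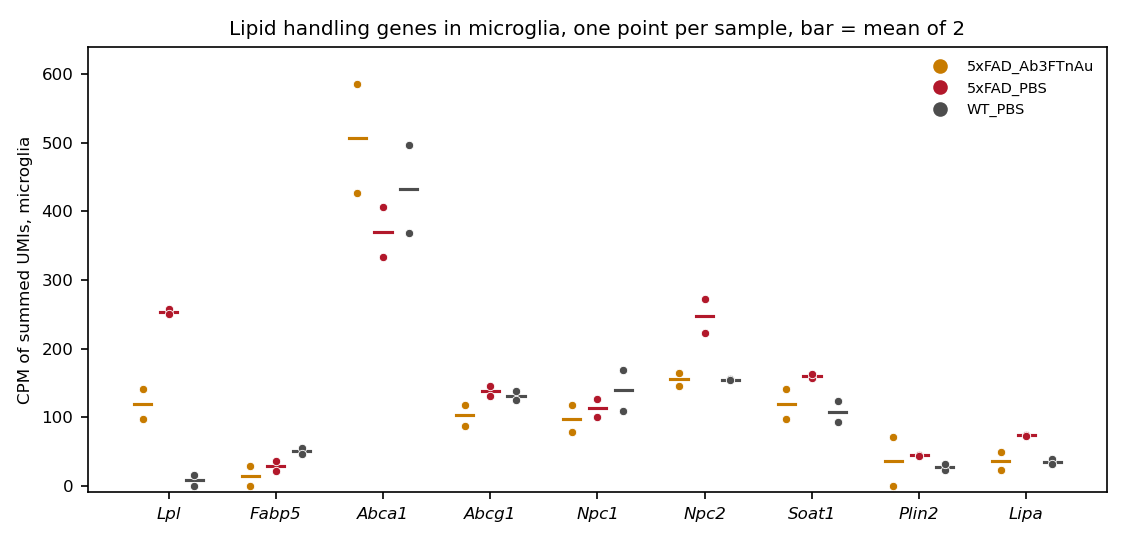
CPM of UMIs summed over microglia for each of the 9 genes (y axis), with 1 point per sample, a bar at the mean of 2 samples, and the groups 5xFAD_Ab3FTnAu, 5xFAD_PBS and WT_PBS from left to right. Lpl separates all 3 groups, with 141 and 97.0 CPM in 5xFAD_Ab3FTnAu, 257.5 and 250.3 CPM in 5xFAD_PBS, and 0 and 15.4 CPM in WT_PBS, while Abca1, Abcg1 and Npc1 overlap between 5xFAD_PBS and WT_PBS.

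Lpl rose in 5xFAD_PBS microglia over WT_PBS (log2 5.44 ± 0.67, adjusted p = 6.09e-06). Because WT_PBS gave 1 UMI, the fitted fold depends on the prior, and the ratio of pooled levels was 49.2 with an exact 95% counting interval of 8.73 to 1953. It rose in 5xFAD_Ab3FTnAu microglia over WT_PBS as well (log2 4.20 ± 0.97, adjusted p = 0.0114), with a ratio of 21.3 (3.31 to 893). Intervals here and below cover counting error only. These are 1 of 6 tested members called in each comparison, where 9.51% of all 3249 tested genes were called for 5xFAD_PBS against WT_PBS, and 5.57% for 5xFAD_Ab3FTnAu against WT_PBS. Between the 5×FAD groups, Lpl was at 119 ± 30.8 CPM in 5xFAD_Ab3FTnAu and 254 ± 5.08 CPM in 5xFAD_PBS (SD, n = 2 each). That difference did not pass (log2 -1.24 ± 0.37, adjusted p = 0.123), in a comparison where 1.14% of tested genes were called, 338 had an unadjusted p under 0.05 and DESeq2 called 10.

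The call for 5xFAD_PBS held in all 22 alternative settings, including microglia with no mitochondrial UMI (log2 6.97, adjusted p = 0.00139), microglia with mitochondrial UMIs (log2 4.56, adjusted p = 0.000751) and microglia with no border macrophage UMI (log2 5.37, adjusted p = 4.01e-05). These fits called 4.94%, 9.77% and 9.1% of genes, and the last setting was chosen after seeing the data. The call for 5xFAD_Ab3FTnAu over WT_PBS held in 15 of 21, and was lost within both mitochondrial subsets (adjusted p = 0.115 without and 0.0868 with such UMIs), with equal numbers of cells (0.0615), in DESeq2 (0.0972), without 5xFAD_Ab3FTnAu sample 2 (0.0789) and without WT_PBS sample 1 (0.211). The difference between the 5×FAD groups passed when WT_PBS sample 1 or 2 was left out (adjusted p = 0.0186 and 0.0282) and in no other setting, over a range of 0.0186 to 0.999, in fits that called 3.41% and 2.54% of genes.

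The share of microglia with at least 1 Lpl UMI followed the same order. With each cell thinned to 1000 UMIs, which left out no cell, it was 5.71% (exact 95% interval 0.700 to 19.2) and 7.69% (2.88 to 16.0) in 5xFAD_Ab3FTnAu. It was 18.4% (13.9 to 23.6) and 16.9% (12.9 to 21.6) in 5xFAD_PBS. In WT_PBS, 0 of 106 microglia had one, with a limit of 2.83% taken as 3 counts and not as an exact interval. In the other WT_PBS sample 1 of 52 had one (1.92%, 0.0487 to 10.3). Without thinning, 8.57% and 8.97% of 5xFAD_Ab3FTnAu microglia, 21.4% and 21.2% of 5xFAD_PBS microglia, and 0% and 1.92% of WT_PBS microglia had one. At the same thinned depth, astrocytes of the 5×FAD groups had 0 cells with an Lpl UMI, and oligodendrocytes stayed between 0.310% and 1.11% and neurons between 0.525% and 1.49% in all 6 samples. The microglial share in both 5xFAD_PBS samples lay above all of these, and the part of free RNA in any of the shares was not tested.

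Within 5xFAD_PBS microglia, Lpl was higher in cells that carried plaque-state transcripts. Cells were split by 2 or more UMIs of 7 genes of that state (Cst7, Itgax, Ank, Csf1, Igf1, Spp1 and Gpnmb), which holds none of the 9. Lpl stood at 333 and 391 CPM in the 147 and 149 cells with such UMIs, against 148 and 100 CPM in the 119 and 158 cells without. Npc2 was also higher with them in both samples, at 284 and 306 CPM against 135 and 236 CPM, as was Soat1, at 160 and 217 CPM against 154 and 105 CPM, and Abca1 was lower, at 293 and 353 CPM against 392 and 462 CPM. The cells with plaque-state UMIs were deeper, with medians of 1406 and 1275 UMIs against 1226 and 1189. In 5xFAD_Ab3FTnAu, 7 and 20 cells carried such UMIs and gave 6 and 4 Lpl UMIs, against 0 and 6 Lpl UMIs in the 28 and 58 cells without. In WT_PBS, 1 and 0 cells carried them. Across all microglia, the 7 genes summed to 1107 ± 125 CPM in 5xFAD_Ab3FTnAu, 2076 ± 286 CPM in 5xFAD_PBS and 92.7 ± 0.659 CPM in WT_PBS (SD, n = 2 each), in the same order as Lpl. The split is a range of a count, not a cell type, and was not tested.

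**Figure D2:**
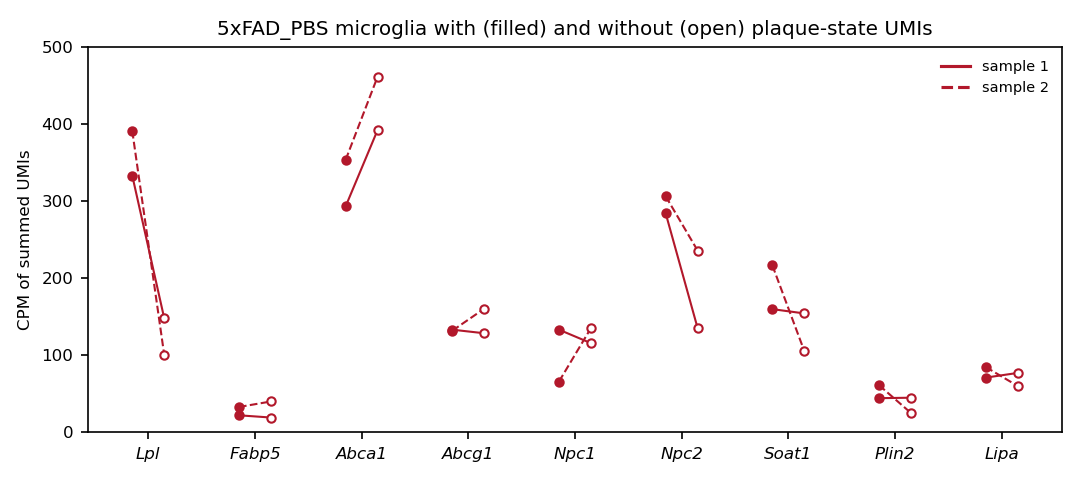
CPM of summed UMIs (y axis) of the 9 genes in 5xFAD_PBS microglia with 2 or more plaque-state UMIs (filled points) and without (open points), joined within sample 1 (solid line) and sample 2 (dashed line). Lpl and Npc2 are higher with plaque-state UMIs in both samples, and Abca1 is lower. Soat1 is higher in sample 2, and in sample 1 by little (160 against 154 CPM). Npc1, Abcg1, Lipa, Plin2 and Fabp5 differ in direction between the samples.

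Outside microglia, Lpl was low and no comparison called it. In neurons it was at 9.01 and 7.85 CPM in 5xFAD_Ab3FTnAu, 12.6 and 13.4 CPM in 5xFAD_PBS, and 10.4 and 9.40 CPM in WT_PBS, from 271 to 592 UMIs per sample. The 5xFAD_Ab3FTnAu samples were the lowest and the 5xFAD_PBS samples the highest, without overlap. The difference between the 5×FAD groups did not pass (log2 -0.63 ± 0.16, adjusted p = 0.112), where 0.0% of 20034 genes were called, 4424 had an unadjusted p under 0.05 and DESeq2 called 1472. It passed in DESeq2 (adjusted p = 0.0406, 8.7% of genes called) and when the wild-type samples left the fit in whole or in part (adjusted p = 0.00551 with both out, 0.00502 without sample 1 and 0.00496 without sample 2). In those 3 fits 31.2%, 29.7% and 29.6% of all genes were called. Groups that do not overlap in this direction made up 35.3% of genes. Over 22 neuron clusters with at least 200 cells and microglia markers under 0.1% of UMIs, Lpl ranged from 0.971 to 31.98 CPM, with a median of 4.52. In oligodendrocytes Lpl stood at 12.1 and 4.16 CPM in 5xFAD_Ab3FTnAu, 13.4 and 4.75 CPM in 5xFAD_PBS, and 4.40 and 9.14 CPM in WT_PBS, with overlapping groups. In astrocytes it had no UMI in either 5×FAD group and 6 and 2 UMIs in WT_PBS, and did not reach the count filter.

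The change of Lpl in 5xFAD_PBS over WT_PBS differed between microglia and neurons. Taken within samples and tested with limma, the microglial change exceeded the neuronal one by 3.61 ± 0.52 on the log2 scale (adjusted p = 0.0201), with 1.17% of 3249 genes called. Microglia exceeded oligodendrocytes by 3.71 ± 0.86, which did not pass (adjusted p = 0.0677), where 0.999% of 2902 genes were called. For 5xFAD_Ab3FTnAu over WT_PBS, the difference from neurons was 3.11 ± 0.52 (adjusted p = 0.0572), with 0.431% of genes called. The first of these fell short in 5 of 7 alternatives, over adjusted p-values of 0.0449 to 0.337: without either 5xFAD_PBS or either WT_PBS sample, and with a prior count of 0.5. No other member's difference between classes passed, except that without 5xFAD_Ab3FTnAu sample 2 Npc2 passed for microglia minus astrocytes in 5xFAD_PBS over WT_PBS (1.83, adjusted p = 0.0420).

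Fabp5 (chromosome 3, 10012548 to 10016607), the intracellular fatty acid carrier, had its highest value in a WT_PBS sample in all 4 classes, and no difference passed. In astrocytes it was at 54.9 and 0 CPM in 5xFAD_Ab3FTnAu, 26.8 and 32.7 CPM in 5xFAD_PBS, and 108 and 85.7 CPM in WT_PBS. Both 5×FAD groups lay below WT_PBS without overlap, as did 20.2% of genes in 5xFAD_Ab3FTnAu and 19.1% in 5xFAD_PBS, but neither difference passed (log2 -1.63 ± 0.66, adjusted p = 0.288 for 5xFAD_Ab3FTnAu, and log2 -1.78 ± 0.58, adjusted p = 0.277 for 5xFAD_PBS). In neurons it was at 8.53 and 8.05 CPM in 5xFAD_Ab3FTnAu, 7.48 and 11.2 CPM in 5xFAD_PBS, and 17.2 and 11.9 CPM in WT_PBS. There the WT_PBS samples were again the highest 2, and the differences did not pass (log2 -0.85 ± 0.25, adjusted p = 0.0847, and log2 -0.67 ± 0.25, adjusted p = 0.644). Of neuronal genes, 29.4% lay without overlap below WT_PBS in 5xFAD_Ab3FTnAu and 13.7% in 5xFAD_PBS. In oligodendrocytes it stood at 43.5 and 36.0 CPM in 5xFAD_Ab3FTnAu, 28.0 and 55.4 CPM in 5xFAD_PBS, and 84.7 and 44.4 CPM in WT_PBS. In all 4 classes, WT_PBS sample 1 was the highest of the 6, in microglia at 54.3 CPM from 7 UMIs. Without WT_PBS sample 2, 5xFAD_PBS against WT_PBS passed in astrocytes (log2 -1.87, adjusted p = 0.0306), oligodendrocytes (log2 -0.89, adjusted p = 0.0292) and neurons (log2 -0.89, adjusted p = 0.00772), in fits that called 5.15%, 8.48% and 30.6% of genes. So did 5xFAD_Ab3FTnAu against WT_PBS in oligodendrocytes (log2 -1.09, adjusted p = 0.0101) and neurons (log2 -1.08, adjusted p = 0.00146), with 12.9% and 48.6% called, and in neurons in DESeq2 (log2 -0.82, adjusted p = 0.0342), with 19.1% called. In microglia Fabp5 gave 3 UMIs in 5xFAD_Ab3FTnAu, 23 in 5xFAD_PBS and 10 in WT_PBS, and did not reach the count filter.

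The lysosomal genes did not pass in any comparison. Npc2 (chromosome 12, 84754562 to 84773152), which carries cholesterol inside the lysosome, was at 164 and 146 CPM in 5xFAD_Ab3FTnAu microglia, 223 and 272 CPM in 5xFAD_PBS, and 155 and 154 CPM in WT_PBS. The 5xFAD_PBS samples lay above all others. Of all tested microglial genes, 26.5% lay without overlap above WT_PBS in 5xFAD_PBS, and 21.0% lay below 5xFAD_PBS in 5xFAD_Ab3FTnAu. Neither the difference from WT_PBS (log2 0.67 ± 0.29, adjusted p = 0.165) nor that of 5xFAD_Ab3FTnAu from 5xFAD_PBS passed (log2 -0.76 ± 0.32, adjusted p = 0.388). With a looser cell filter of 300 genes and 500 UMIs, Npc2 passed for 5xFAD_PBS over WT_PBS (log2 0.80, adjusted p = 0.0288), as did Soat1 (log2 0.96, adjusted p = 0.0296), where 8.48% of 5754 genes were called.

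Npc1 (chromosome 18, 12189692 to 12236400), the lysosomal exporter, was at 117 and 77.6 CPM in 5xFAD_Ab3FTnAu microglia, 126 and 99.6 CPM in 5xFAD_PBS, and 109 and 169 CPM in WT_PBS, with overlapping groups. In neurons it stood at 52.3 and 52.4 CPM in 5xFAD_Ab3FTnAu, 34.5 and 38.7 CPM in 5xFAD_PBS, and 43.0 and 37.5 CPM in WT_PBS. Both 5xFAD_Ab3FTnAu samples were above the other 4, and the difference from 5xFAD_PBS did not pass (log2 0.52 ± 0.11, adjusted p = 0.0905). Of all genes, 32.7% lay without overlap above 5xFAD_PBS in 5xFAD_Ab3FTnAu neurons. Like Lpl in neurons, Npc1 passed in DESeq2 (adjusted p = 0.0162), where 8.7% of genes were called. It also passed with both WT_PBS samples out of the fit (adjusted p = 0.00169), where 31.2% of genes were called. Against WT_PBS the neuronal difference was 0.35 ± 0.11 (adjusted p = 0.0926), and it passed without WT_PBS sample 1 (0.43, adjusted p = 0.0185) and sample 2 (0.26, adjusted p = 0.0479), where 18.8% and 48.6% of genes were called. In astrocytes Npc1 was at 147 and 130 CPM in 5xFAD_Ab3FTnAu, 58.9 and 81.9 CPM in 5xFAD_PBS, and 96.0 and 85.7 CPM in WT_PBS, from 9 to 99 UMIs. Both 5xFAD_Ab3FTnAu samples were above the other 4 without a call (log2 0.99 ± 0.43 over 5xFAD_PBS, adjusted p = 0.647), and 21.2% of astrocyte genes lay above 5xFAD_PBS without overlap. In oligodendrocytes it ranged from 141 to 189 CPM over the 6 samples, with overlapping groups.

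Lipa (chromosome 19, 34492318 to 34527474), the acid lipase, gave 6 UMIs in 5xFAD_Ab3FTnAu microglia, 58 in 5xFAD_PBS and 7 in WT_PBS, too few for the filter. Its levels there were 23.4 and 48.5 CPM in 5xFAD_Ab3FTnAu, 73.6 and 72.9 CPM in 5xFAD_PBS, and 38.8 and 30.7 CPM in WT_PBS. With no count filter, its difference of 5xFAD_PBS from WT_PBS was 1.16 on the log2 scale (adjusted p = 0.557). In oligodendrocytes Lipa was at 21.7 and 45.7 CPM in 5xFAD_Ab3FTnAu, 45.9 and 50.7 CPM in 5xFAD_PBS, and 64.9 and 56.2 CPM in WT_PBS, an order that did not pass for either group against WT_PBS (log2 -0.76 ± 0.32, adjusted p = 0.2398, and log2 -0.28 ± 0.28, adjusted p = 0.782). There 23.1% of genes lay without overlap below WT_PBS in 5xFAD_Ab3FTnAu and 22.5% in 5xFAD_PBS.

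The storage genes also stayed below the threshold. Soat1 (chromosome 1, 156424525 to 156474331), which esterifies cholesterol, was at 141 and 97.0 CPM in 5xFAD_Ab3FTnAu microglia, 158 and 163 CPM in 5xFAD_PBS, and 93.2 and 123 CPM in WT_PBS. Again 5xFAD_PBS was the highest (log2 0.61 ± 0.35 over WT_PBS, adjusted p = 0.333). The shares of genes without overlap were those given for Npc2, 26.5% above WT_PBS and 21.0% below 5xFAD_PBS in 5xFAD_Ab3FTnAu. In astrocytes Soat1 stood at 137 and 245 CPM in 5xFAD_Ab3FTnAu, 128 and 139 CPM in 5xFAD_PBS, and 246 and 161 CPM in WT_PBS, where the 5×FAD groups overlapped and 5xFAD_PBS had the lowest mean (log2 -0.69 ± 0.33 against WT_PBS, adjusted p = 0.545). Plin2 (chromosome 4, 86648386 to 86670060), the droplet coat protein, was sparse everywhere. In microglia it gave 3 UMIs in 5xFAD_Ab3FTnAu, 35 in 5xFAD_PBS and 5 in WT_PBS, at 70.3 and 0 CPM, 44.7 and 43.7 CPM, and 23.3 and 30.7 CPM in that order of groups. In neurons it was at 0.428 and 0.426 CPM in 5xFAD_Ab3FTnAu, 0.727 and 0.755 CPM in 5xFAD_PBS, and 0.367 and 0.173 CPM in WT_PBS. The 5xFAD_PBS neurons were the highest, from 20 and 26 UMIs, and did not pass against WT_PBS (log2 1.33 ± 0.40, adjusted p = 0.644), and 23.0% of neuronal genes lay above WT_PBS without overlap.

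The efflux transporters showed no called difference, including between 5xFAD_PBS and WT_PBS microglia. Abca1 (chromosome 4, 53030787 to 53159895) was at 586 and 427 CPM in 5xFAD_Ab3FTnAu microglia, 334 and 406 CPM in 5xFAD_PBS, and 497 and 369 CPM in WT_PBS. The 5xFAD_PBS and WT_PBS samples overlapped (log2 -0.29 ± 0.23, adjusted p = 0.518). In oligodendrocytes it stood at 123 and 136 CPM in 5xFAD_Ab3FTnAu, 121 and 140 CPM in 5xFAD_PBS, and 82.5 and 103 CPM in WT_PBS. Both 5×FAD groups were above WT_PBS there without a call (log2 0.48 ± 0.21, adjusted p = 0.261 for 5xFAD_Ab3FTnAu, and log2 0.54 ± 0.20, adjusted p = 0.371 for 5xFAD_PBS). Of all genes in that class, 22.7% lay without overlap above WT_PBS in 5xFAD_Ab3FTnAu and 17.1% in 5xFAD_PBS. Without WT_PBS sample 2 both passed (log2 0.69, adjusted p = 0.0469, and log2 0.75, adjusted p = 0.0249), as did Npc2 for 5xFAD_Ab3FTnAu against WT_PBS in the same class (log2 -0.89, adjusted p = 0.0132) and Soat1 in neurons (log2 -0.42, adjusted p = 0.0164). Those fits called 12.9% of oligodendrocyte genes for 5xFAD_Ab3FTnAu and 8.48% for 5xFAD_PBS, and 48.6% of neuronal genes. Abcg1 (chromosome 17, 31057675 to 31117988) was at 117 and 87.3 CPM in 5xFAD_Ab3FTnAu microglia, 131 and 146 CPM in 5xFAD_PBS, and 124 and 138 CPM in WT_PBS (log2 0.09 ± 0.34 for 5xFAD_PBS over WT_PBS, adjusted p = 0.912).

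**Figure D3:**
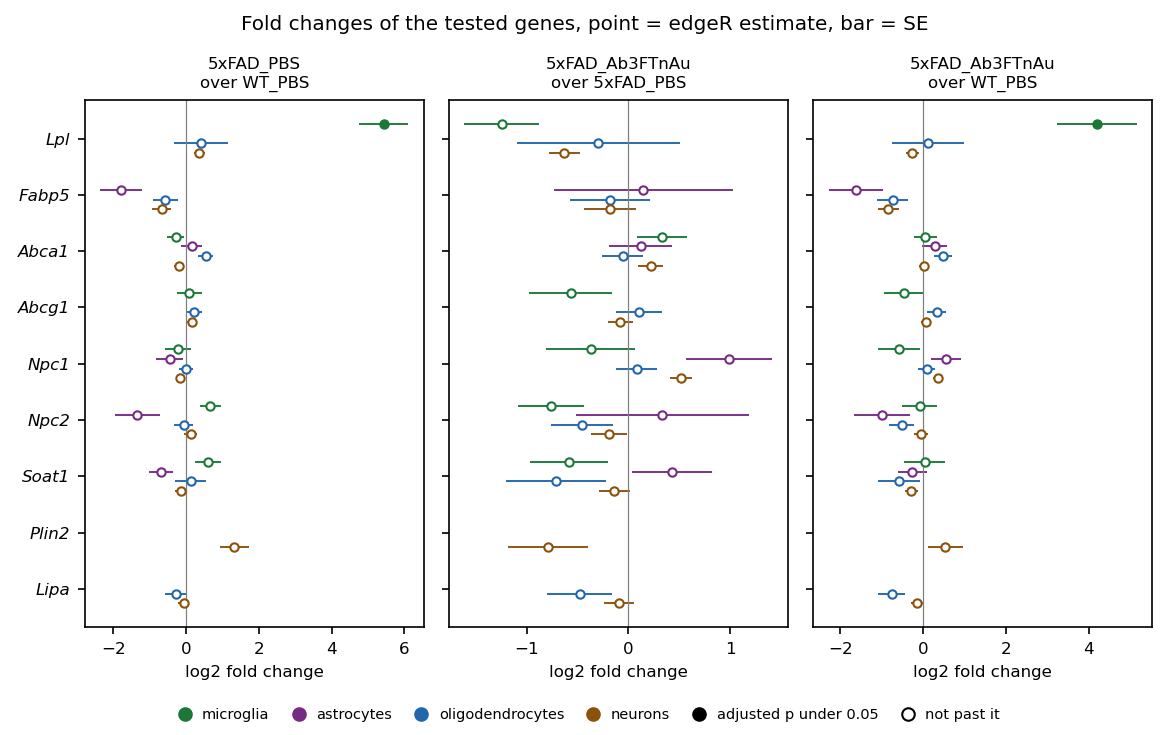
Log2 fold changes (x axis) of the members that reached the count filter, by class (colour), in 3 panels for 5xFAD_PBS over WT_PBS, 5xFAD_Ab3FTnAu over 5xFAD_PBS and 5xFAD_Ab3FTnAu over WT_PBS, each on its own scale, with edgeR estimates as points and SE as bars. The filled points, Lpl in microglia at 5.44 and 4.20 against WT_PBS, are the ones with an adjusted p under 0.05.

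Counted over members, 6 of 9 reached the filter in microglia, 5 in astrocytes, 8 in oligodendrocytes and 9 in neurons. In microglia, the median log2 change of the 6 was 0.35 for 5xFAD_PBS over WT_PBS, -0.57 for 5xFAD_Ab3FTnAu over 5xFAD_PBS and -0.03 for 5xFAD_Ab3FTnAu over WT_PBS, beside medians over all genes of -0.01, -0.01 and -0.02. The comparisons share samples, so these medians are not independent. They also depend on the filter, which Lpl passed on the UMIs of the 5×FAD groups, with 1 UMI in WT_PBS. Of those that missed it, Fabp5 had a higher mean in WT_PBS than in 5xFAD_PBS (50.2 against 28.7 CPM). Plin2 and Lipa had a lower mean in WT_PBS (27.0 against 44.2 CPM, and 34.8 against 73.2 CPM). In astrocytes 0 of 5 members were called for 5xFAD_PBS against WT_PBS (0.0284% of 3517 genes called, 324 with an unadjusted p under 0.05, DESeq2 2), 0 for 5xFAD_Ab3FTnAu against 5xFAD_PBS (0.114% called, 249, DESeq2 3) and 0 for 5xFAD_Ab3FTnAu against WT_PBS (0.711% called, 460, DESeq2 8). In oligodendrocytes 0 of 8 were called in the same comparisons (0.125%, 0.0417% and 2.0% of 9584 genes called, 960, 831 and 1639 with an unadjusted p under 0.05, DESeq2 4, 4 and 91). In neurons 0 of 9 were called for 5xFAD_PBS against WT_PBS (0.0% called, 1367 with an unadjusted p under 0.05, DESeq2 51) and 0 for 5xFAD_Ab3FTnAu against WT_PBS (2.16% called, 6817, DESeq2 3600). Of these member tests, unadjusted p-values under 0.05 numbered 2, 1 and 1 in astrocytes, 1, 0 and 2 in oligodendrocytes, and 2, 2 and 2 in neurons, for 5xFAD_PBS against WT_PBS, 5xFAD_Ab3FTnAu against 5xFAD_PBS and 5xFAD_Ab3FTnAu against WT_PBS.

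Across cell classes, Abca1 was ordered the same way in all 6 samples, with 436 ± 91.8 CPM in microglia, 258 ± 35.4 in astrocytes, 118 ± 21.5 in oligodendrocytes and 16.8 ± 1.23 in neurons (SD over 6 samples). Its relative Abcg1 shared the first place between microglia (124 ± 20.6 CPM) and oligodendrocytes (121 ± 19.7 CPM), which did not differ beyond their spread. Abcg1 was lower in neurons (34.0 ± 2.74 CPM) and lowest in astrocytes (3.97 ± 4.67 CPM, 11 UMIs in all), in 6 of 6 samples. Astrocytes thus held Abca1 at 15.3 times the neuronal level and Abcg1 at 0.117 times.

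Soat1 was high in astrocytes (176 ± 54.9 CPM) and microglia (129 ± 29.8 CPM), which overlapped, and low in neurons (17.5 ± 2.02 CPM) and oligodendrocytes (15.6 ± 4.70 CPM), which overlapped too. Npc2 was highest in microglia in 6 of 6 samples, at 186 ± 50.8 CPM, ahead of oligodendrocytes (70.5 ± 20.0 CPM), astrocytes (47.1 ± 26.8 CPM) and neurons (10.9 ± 1.21 CPM). Npc1, its partner, led in oligodendrocytes instead (167 ± 19.2 CPM), above microglia (116 ± 30.7 CPM) in 5 of 6 samples, astrocytes (99.8 ± 32.5 CPM) and neurons (43.1 ± 7.70 CPM). Lipa was level between microglia (48.0 ± 21.3 CPM) and oligodendrocytes (47.5 ± 14.5 CPM), followed by astrocytes (24.4 ± 16.1 CPM) and neurons (9.50 ± 0.544 CPM). Fabp5 stood at 51.3 ± 39.9 CPM in astrocytes, 48.7 ± 19.9 in oligodendrocytes, 31.2 ± 19.3 in microglia and 10.7 ± 3.65 in neurons. Plin2 was at 35.5 ± 23.6 CPM in microglia, 13.7 ± 7.26 in astrocytes, 2.38 ± 2.34 in oligodendrocytes and 0.479 ± 0.223 in neurons, and Lpl at 127 ± 111, 2.75 ± 4.54, 7.99 ± 4.14 and 10.4 ± 2.17 CPM in those classes.

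**Figure D4:**
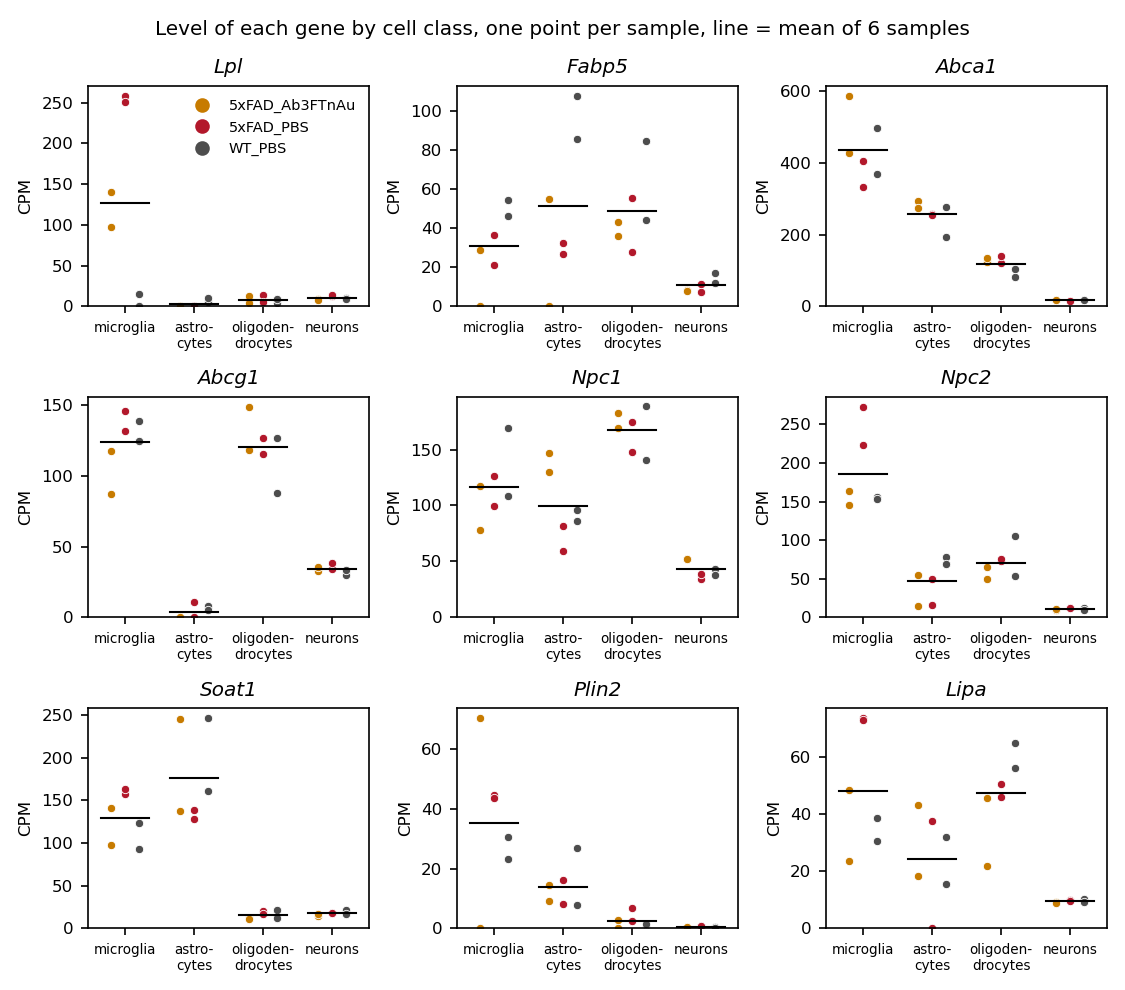
CPM of summed UMIs (y axis, from 0, scaled per gene) of each gene in microglia, astrocytes, oligodendrocytes and neurons, with 1 point per sample coloured by group and a line at the mean of 6 samples. Abca1 falls in steps across the classes (436, 258, 118 and 16.8 CPM), Abcg1 is near 0 in astrocytes, and Lpl reaches 97.0 CPM or more in the microglia of the 5×FAD groups and at most 15.4 CPM elsewhere.

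Neighbouring classes in each gene's order were compared within samples by an exact two-sided sign-flip permutation test of log2(CPM + 1). The order came from the means of these same 6 samples, so the pairs were picked from the values tested. With 6 samples the smallest p is 0.03125, and over 27 such pairs it came to 0.0767 after Benjamini-Hochberg adjustment, so no pair passed. A pair could pass only if many reached the smallest p, so this does not show that any 2 classes were level. The smallest p was reached by 11 pairs, all 3 steps of Abca1 among them. Median depth was 4529 to 6334 UMIs per neuron and 1145 to 1833 UMIs per cell in the glial classes. In neurons, the 18 microglia markers summed to 368 ± 22.8 CPM in 5xFAD_Ab3FTnAu, 378 ± 11.5 CPM in 5xFAD_PBS and 274 ± 34.9 CPM in WT_PBS (SD, n = 2 each), and the part of such RNA in the neuronal levels was not tested.

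Of 78 other genes of lipid handling, listed by role, 18 were tested in microglia. For 5xFAD_PBS against WT_PBS, 2 rose and 2 fell, where 9.51% of all genes were called, with a median log2 change of 0.05 beside -0.01 over all genes. Apoe, the lipid carrier that receives cholesterol from Abca1 and Abcg1, was at 4420 and 4661 CPM in 5xFAD_PBS and 1995 and 692 CPM in WT_PBS (log2 1.70 ± 0.30, adjusted p = 0.000565). That call held in 21 of 22 alternatives, over a log2 range of 1.03 to 3.46. Trem2, a lipid-sensing receptor of microglia, was at 1138 and 1113 CPM in 5xFAD_PBS against 769 and 123 CPM in WT_PBS (log2 1.13 ± 0.32, adjusted p = 0.0265), a call that held in 14 of 22 alternatives. The scavenger receptor Stab1 fell to 55.2 and 82.6 CPM in 5xFAD_PBS, against 241 and 169 CPM in WT_PBS (log2 -1.64 ± 0.34, adjusted p = 0.00249). Abca9, a transporter of the Abca family, fell to 289 and 350 CPM in 5xFAD_PBS, against 683 and 492 CPM in WT_PBS (log2 -0.94 ± 0.22, adjusted p = 0.00703), and that call held in 14 of 22. The border macrophage genes were lower in 5xFAD_PBS as well, and their part in these falls, or in the rises of Apoe and Trem2, was not tested. Among microglia with no border macrophage UMI, a setting chosen after seeing the data, Stab1 was at log2 -1.32 (adjusted p = 0.0452) and Abca9 at log2 -0.88 (adjusted p = 0.0186). In that setting 9.1% of genes were called.

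Between the 5×FAD groups, Apoe and Trem2 were the 2 of 18 that passed, both lower in 5xFAD_Ab3FTnAu, where 1.14% of all genes were called. Apoe was at 1477 and 1000 CPM in 5xFAD_Ab3FTnAu microglia against 4420 and 4661 CPM in 5xFAD_PBS (log2 -1.95 ± 0.32, adjusted p = 0.000697). Trem2 was at 188 and 252 CPM in 5xFAD_Ab3FTnAu against 1138 and 1113 CPM in 5xFAD_PBS (log2 -2.33 ± 0.40, adjusted p = 0.00139). The 18 microglia markers also summed lower, to 11392 and 11384 CPM against 15860 and 17007 CPM. Of these, C1qa was lower (328 and 408 CPM against 1600 and 1986 CPM). Inpp5d was higher (1805 and 1689 CPM against 1395 and 1402 CPM). No mitochondrial UMI was found in 77.1% and 65.4% of 5xFAD_Ab3FTnAu microglia, against 22.6% and 17.3% in 5xFAD_PBS. The part of these differences in the 2 calls was not tested. For 5xFAD_Ab3FTnAu against WT_PBS, 0 of the 18 passed, where 5.57% of all genes were called, with Apoe at log2 -0.25 ± 0.32 (adjusted p = 0.741) and Trem2 at -1.20 ± 0.46 (adjusted p = 0.134). The WT_PBS samples differed in Trem2, and without sample 2 this difference was -1.76 and passed (adjusted p = 7.20e-07), while without sample 1 it was 0.87 (adjusted p = 0.487). Among microglia with no border macrophage UMI, a setting chosen after seeing the data, Apoe against WT_PBS turned to 1.54 (adjusted p = 0.00238) in 5xFAD_Ab3FTnAu. The oxysterol receptor Nr1h3 and the triglyceride synthase Dgat2 were too low to test, with no UMI in 5xFAD_Ab3FTnAu microglia.

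Apoe also fell outside microglia. In astrocytes it was at 1108 and 1125 CPM in 5xFAD_Ab3FTnAu, 4229 and 9045 CPM in 5xFAD_PBS, and 8040 and 4648 CPM in WT_PBS, a fall against both (log2 -2.61 ± 0.32, adjusted p = 0.00216, and log2 -2.56 ± 0.31, adjusted p = 0.00173). In oligodendrocytes it was at 348 and 278 CPM in 5xFAD_Ab3FTnAu, 982 and 1262 CPM in 5xFAD_PBS, and 1089 and 703 CPM in WT_PBS, again a fall against both (log2 -1.90 ± 0.22, adjusted p = 0.00571, and log2 -1.53 ± 0.22, adjusted p = 0.00799). Against 5xFAD_PBS the call held in 18 of 22 alternatives in astrocytes and 19 of 22 in oligodendrocytes. Cells with no mitochondrial UMI made up 58.2% of 5xFAD_Ab3FTnAu, 11.8% of 5xFAD_PBS and 35.8% of WT_PBS astrocytes, as means of 2 samples. In oligodendrocytes they made up 63.6%, 22.1% and 47.7%, in that order of groups. The part of these shares, or of free Apoe RNA, in the levels of Apoe outside microglia was not tested. In oligodendrocytes Trem2 rose to 58.2 and 45.1 CPM in 5xFAD_PBS, against 8.80 and 14.4 CPM in WT_PBS (log2 2.20 ± 0.37, adjusted p = 0.0350), a call that held in 10 of 21 alternatives. The plaque-state genes in that class summed to 502 ± 15.6 CPM in 5xFAD_PBS and 323 ± 16.7 CPM in WT_PBS, and their part in it was not tested. In neurons, Apoe and Clu, another apolipoprotein, fell in 5xFAD_Ab3FTnAu against WT_PBS (log2 -0.69 ± 0.12 and -1.24 ± 0.21, adjusted p = 0.0495 each), where 2.16% of genes were called. These calls held in 12 of 22 alternatives for Apoe and 10 of 22 for Clu, with adjusted p-values up to 0.305. Of the listed genes, 18 were tested in astrocytes, 45 in oligodendrocytes and 71 in neurons, and those named are all that passed there.

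The genes whose levels were most like a member's over the 24 values of sample and class were picked by Pearson's r of log2(CPM + 10), among 7676 genes with at least 50 CPM in 2 or more values. For Lpl these were Dkk2 (r = 0.96), Plaur (r = 0.95) and Itgax (r = 0.94), the last of which belongs to the plaque-state list. Abca1 was followed most closely by Agmo (0.98), Itpr2 (0.97) and Arhgap31 (0.96), and Abcg1 by Ssh2, Dock10 (both 0.94) and Ncoa3 (0.93). Soat1 was nearest to Macf1 (0.98), Acss1 and Gsap (both 0.97). Npc2 was nearest to Pmp22 (0.96), Mthfs and Nfatc3 (both 0.93), and Npc1 to Dusp16 (0.93), Gab1 and Rab31 (both 0.92). Fabp5 was nearest to Ubb (0.90), Cirbp (0.88) and Smim10l1 (0.85), Plin2 to Apaf1 (0.89), Azin1 and Tbc1d31 (both 0.85), and Lipa to Herc4 (0.89), Sgk3 and Pex2 (both 0.84). The 4 classes of a sample share its library, and no p is given.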

How the data were processed

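Single-cell RNA sequencing of mouse hippocampus gave 1 matrix per sample, deposited by the authors as UMI counts per gene and barcode. The matrix headers name Cell Ranger 7.1.0, and the submitters' processing notes name Seurat 4.3.0.1 and the mm10 build. Coordinates are from GENCODE on GRCm38. No count was normalized before deposit, and a count is a number of distinct molecules.

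Of 50224 barcodes, 44736 had at least 500 genes, 1000 UMIs and at most 15% mitochondrial UMIs. Scrublet scores, taken per sample, removed 3080 probable doublets at 0.8% per 1000 cells, which left 41656 cells. Classes were set from marker UMIs as the report states, since no annotation of the cells was used. Cells past 0.5% with 3 distinct markers on more than 1 list (492) or on none (333) were set aside. The UMIs of each class in each sample were added up and tested with edgeR 4.0.16 (quasi-likelihood, TMM, filterByExpr, Benjamini-Hochberg over all genes of the class, all 6 samples in 1 fit). An SE is the log2 fold change divided by the root of F. Differences between classes used limma 3.58.1 on log2 CPM with a prior count of 2, and DESeq2 1.42.0 was an alternative. Python 3.11.15, scanpy 1.11.5 and R 4.3.3 were used, and the fits were tested on simulated data. The alternatives covered normalization, tool, filters, doublets, class rule, cell subsets, the replicate block and leaving out each sample.

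The 9 genes, the lists and the tests were chosen with earlier results of these data known. Named besides the 9 are listed pathway genes past the threshold, fixed genes in microglia, of which 1 is not reported here, and the 3 genes most like each member. Libraries held 32528417 to 76780861 UMIs, and microglia 42661 to 411480 per sample. Intervals (95%, exact) and limits for a count of 0 (3 counts) cover counting error only.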

Additional observations from a re-analysis of the deposited data

Results flagged for a closer look

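The change of Lpl in 5xFAD_PBS over WT_PBS was larger in microglia than in neurons, by 3.61 on the log2 scale (SE 0.52, limma adjusted p = 0.0201). It stands here because a test of the difference itself found 2 cell classes to differ under the same contrast. The levels behind it were 257.5 and 250.3 CPM in 5xFAD_PBS microglia against 0 and 15.4 CPM in WT_PBS microglia, and 12.6 and 13.4 CPM in 5xFAD_PBS neurons against 10.4 and 9.40 CPM in WT_PBS neurons. The microglial change was in the same direction in both samples, with 1 UMI in WT_PBS in all, and the difference passed in 2 of 7 alternatives.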

How the results depend on the processing

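Microglial Lpl in 5xFAD_PBS over WT_PBS kept its call in all 22 alternatives, over a log2 range of 4.01 to 8.77. In 5xFAD_Ab3FTnAu over WT_PBS it lost its call at 5.05 with no mitochondrial UMI, 4.04 with mitochondrial UMIs, 5.63 with equal cells per sample and 4.33 in DESeq2, and with only these groups in the fit it gave no value. Its excess over neurons was 4.83 with a prior count of 0.5, where it missed the threshold. Of log2 changes other than those leaving out a sample, 1368 of 1470 kept their direction and their side of the threshold and 48 changed sign. The settings with no microglia-marker UMI and with no border macrophage UMI were chosen after seeing the data, and the causes of the changes below were not tested.

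The counts of called genes moved by more than 1.5 times in 92 of 192 cases. With DESeq2, called genes numbered 69 in microglia, 2 in astrocytes, 4 in oligodendrocytes and 51 in neurons for 5xFAD_PBS against WT_PBS, 10 in microglia and 1472 in neurons for 5xFAD_Ab3FTnAu against 5xFAD_PBS, and 43 in microglia, 8 in astrocytes, 91 in oligodendrocytes and 3600 in neurons for 5xFAD_Ab3FTnAu against WT_PBS. With DESeq2 size factors, called genes numbered 2 in oligodendrocytes for 5xFAD_Ab3FTnAu against 5xFAD_PBS and 0 in neurons for 5xFAD_Ab3FTnAu against WT_PBS. With classes from Leiden clusters, called genes numbered 0 in astrocytes and 29 in oligodendrocytes for 5xFAD_PBS against WT_PBS and 1 in astrocytes and 11 in oligodendrocytes for 5xFAD_Ab3FTnAu against 5xFAD_PBS. With at most 5% mitochondrial UMIs, called genes numbered 2 in astrocytes for 5xFAD_PBS against WT_PBS, 2 in oligodendrocytes for 5xFAD_Ab3FTnAu against 5xFAD_PBS, and 10 in astrocytes for 5xFAD_Ab3FTnAu against WT_PBS. With doublets kept, called genes numbered 12 in oligodendrocytes for 5xFAD_Ab3FTnAu against 5xFAD_PBS and 8 in astrocytes for 5xFAD_Ab3FTnAu against WT_PBS. With equal cells per sample, called genes numbered 22 in microglia, 0 in astrocytes and 1 in oligodendrocytes for 5xFAD_PBS against WT_PBS, 6 in microglia and 7 in oligodendrocytes for 5xFAD_Ab3FTnAu against 5xFAD_PBS, and 29 in microglia, 7 in astrocytes and 41 in oligodendrocytes for 5xFAD_Ab3FTnAu against WT_PBS. With scaling by library size alone, called genes numbered 2 in oligodendrocytes for 5xFAD_Ab3FTnAu against 5xFAD_PBS and 0 in neurons for 5xFAD_Ab3FTnAu against WT_PBS. With the looser cell filter, called genes numbered 488 in microglia and 7 in astrocytes for 5xFAD_PBS against WT_PBS, 0 in oligodendrocytes for 5xFAD_Ab3FTnAu against 5xFAD_PBS, and 396 in microglia and 65 in astrocytes for 5xFAD_Ab3FTnAu against WT_PBS. With the looser marker threshold, called genes numbered 11 in astrocytes for 5xFAD_PBS against WT_PBS, 2 in oligodendrocytes for 5xFAD_Ab3FTnAu against 5xFAD_PBS, and 48 in astrocytes for 5xFAD_Ab3FTnAu against WT_PBS. With no filter on low counts, called genes numbered 101 in astrocytes and 185 in oligodendrocytes for 5xFAD_PBS against WT_PBS, 57 in microglia, 28 in astrocytes, 139 in oligodendrocytes and 128 in neurons for 5xFAD_Ab3FTnAu against 5xFAD_PBS, and 160 in astrocytes, 683 in oligodendrocytes and 1975 in neurons for 5xFAD_Ab3FTnAu against WT_PBS. In other cells with no microglia-marker UMI, called genes numbered 0 in astrocytes and 1 in oligodendrocytes for 5xFAD_PBS against WT_PBS, 0 in astrocytes and 72 in neurons for 5xFAD_Ab3FTnAu against 5xFAD_PBS, and 4 in astrocytes and 65 in oligodendrocytes for 5xFAD_Ab3FTnAu against WT_PBS. In cells with no mitochondrial UMI, called genes numbered 97 in microglia and 5 in oligodendrocytes for 5xFAD_PBS against WT_PBS, 9 in microglia, 0 in astrocytes, 1 in oligodendrocytes and 77 in neurons for 5xFAD_Ab3FTnAu against 5xFAD_PBS, and 90 in microglia and 835 in neurons for 5xFAD_Ab3FTnAu against WT_PBS. With only the groups compared in the fit, called genes numbered 171 in microglia, 2 in astrocytes and 3 in oligodendrocytes for 5xFAD_PBS against WT_PBS, 98 in microglia, 23 in astrocytes, 260 in oligodendrocytes and 6150 in neurons for 5xFAD_Ab3FTnAu against 5xFAD_PBS, and 94 in microglia, 67 in astrocytes, 20 in oligodendrocytes and 0 in neurons for 5xFAD_Ab3FTnAu against WT_PBS. With the stricter marker threshold, called genes numbered 11 in astrocytes for 5xFAD_Ab3FTnAu against 5xFAD_PBS and 42 in astrocytes and 0 in neurons for 5xFAD_Ab3FTnAu against WT_PBS. In cells with mitochondrial UMIs, called genes numbered 129 in microglia, 3 in astrocytes and 2 in oligodendrocytes for 5xFAD_PBS against WT_PBS, 13 in microglia and 2 in astrocytes for 5xFAD_Ab3FTnAu against 5xFAD_PBS, and 9 in microglia, 2 in astrocytes, 9 in oligodendrocytes and 0 in neurons for 5xFAD_Ab3FTnAu against WT_PBS.

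The log2 changes that changed sign lay mostly near 0. With classes from Leiden clusters, Soat1 was -0.18 in oligodendrocytes for 5xFAD_PBS against WT_PBS, Fabp5 was -0.0076 in astrocytes and Abca1 was 0.065 in oligodendrocytes for 5xFAD_Ab3FTnAu against 5xFAD_PBS, Soat1 was -0.0015 in microglia for 5xFAD_Ab3FTnAu against WT_PBS. With equal cells per sample, Abca1 was -0.011 in astrocytes and Npc1 was -0.058 in oligodendrocytes for 5xFAD_PBS against WT_PBS, Abca1 was -0.061 in astrocytes for 5xFAD_Ab3FTnAu against 5xFAD_PBS, Apoe was 0.27 in microglia, Abca1 was -0.072 in astrocytes, Soat1 was 0.12 in astrocytes and Abca1 was -0.035 in neurons for 5xFAD_Ab3FTnAu against WT_PBS. With scaling by library size alone, Npc1 was -0.040 in oligodendrocytes for 5xFAD_PBS against WT_PBS. With the looser cell filter, Npc1 was 0.14 in microglia and Npc2 was 0.023 in oligodendrocytes for 5xFAD_PBS against WT_PBS, Npc2 was -0.013 in astrocytes for 5xFAD_Ab3FTnAu against 5xFAD_PBS, Abcg1 was 0.026 in microglia, Npc2 was 0.078 in microglia and Apoe was 0.23 in microglia for 5xFAD_Ab3FTnAu against WT_PBS. With the looser marker threshold, Soat1 was -0.019 in microglia for 5xFAD_Ab3FTnAu against WT_PBS. In microglia with no border macrophage UMI, Npc2 was 0.079 in microglia and Apoe was 1.54 in microglia for 5xFAD_Ab3FTnAu against WT_PBS. In other cells with no microglia-marker UMI, Abca1 was -0.31 in astrocytes for 5xFAD_PBS against WT_PBS, Soat1 was -0.40 in astrocytes, Fabp5 was 0.19 in oligodendrocytes, Npc1 was -0.070 in oligodendrocytes and Fabp5 was 0.089 in neurons for 5xFAD_Ab3FTnAu against 5xFAD_PBS, Abca1 was -0.0062 in oligodendrocytes and Abca1 was -0.0090 in neurons for 5xFAD_Ab3FTnAu against WT_PBS. In cells with no mitochondrial UMI, Abca1 was 0.070 in microglia for 5xFAD_PBS against WT_PBS, Abca1 was -0.084 in microglia, Npc1 was -0.11 in oligodendrocytes, Soat1 was 0.041 in neurons and Lipa was 0.32 in neurons for 5xFAD_Ab3FTnAu against 5xFAD_PBS, Abca1 was -0.014 in microglia, Soat1 was -0.60 in microglia, Npc1 was -0.075 in oligodendrocytes and Abca1 was -0.089 in neurons for 5xFAD_Ab3FTnAu against WT_PBS. With the stricter marker threshold, Abcg1 was -0.0052 in microglia and Npc1 was -0.0034 in oligodendrocytes for 5xFAD_PBS against WT_PBS. In cells with mitochondrial UMIs, Npc1 was -0.00078 in oligodendrocytes for 5xFAD_PBS against WT_PBS, Fabp5 was -0.078 in astrocytes, Fabp5 was 0.20 in oligodendrocytes, Abca1 was 0.22 in oligodendrocytes, Abcg1 was -0.18 in oligodendrocytes, Abcg1 was 0.013 in neurons and Npc2 was 0.013 in neurons for 5xFAD_Ab3FTnAu against 5xFAD_PBS, Apoe was 1.39 in microglia and Npc2 was 0.088 in neurons for 5xFAD_Ab3FTnAu against WT_PBS. The level of Abcg1 in microglia against oligodendrocytes changed sign, to -0.010 with the stricter marker threshold and -0.067 with Leiden clusters.

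Replicate numbers were not treated as pairs in the main fit. Same-numbered deviations from the group means correlated at -0.161 to 0.0719, which cannot show whether the samples were paired, and the labels name no pairing. With the replicate number as a block, called genes numbered 13 in astrocytes and 3 in oligodendrocytes for 5xFAD_PBS against WT_PBS, 12 in astrocytes and 2 in oligodendrocytes for 5xFAD_Ab3FTnAu against 5xFAD_PBS, 43 in astrocytes, 22 in oligodendrocytes and 0 in neurons for 5xFAD_Ab3FTnAu against WT_PBS, and no call of the 9 genes changed, while Trem2 in oligodendrocytes and Apoe and Clu in neurons lost theirs.

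Leaving out 1 sample at a time, where a lone sample is assumed to vary like the other groups, called genes numbered 106 to 413 in microglia, 2 to 187 in astrocytes, 3 to 904 in oligodendrocytes and 0 to 6376 in neurons for 5xFAD_PBS against WT_PBS, 11 to 119 in microglia, 0 to 43 in astrocytes, 0 to 364 in oligodendrocytes and 0 to 6166 in neurons for 5xFAD_Ab3FTnAu against 5xFAD_PBS, and 32 to 335 in microglia, 2 to 241 in astrocytes, 4 to 1371 in oligodendrocytes and 0 to 10119 in neurons for 5xFAD_Ab3FTnAu against WT_PBS. Microglia gave Abca1 -0.42 to 0.021 and Npc1 -0.57 to 0.049 on the log2 scale for 5xFAD_PBS against WT_PBS. Astrocytes gave Abca1 -0.15 to 0.40 on the log2 scale for 5xFAD_PBS against WT_PBS. Oligodendrocytes gave Lpl -0.058 to 1.06, Abcg1 -0.031 to 0.54, Npc1 -0.15 to 0.23, Npc2 -0.42 to 0.51 and Soat1 -0.20 to 0.65 on the log2 scale for 5xFAD_PBS against WT_PBS. Neurons gave Npc2 -0.045 to 0.34 and Lipa -0.14 to 0.011 on the log2 scale for 5xFAD_PBS against WT_PBS. Microglia gave Lpl -1.42 to -0.94 on the log2 scale for 5xFAD_Ab3FTnAu against 5xFAD_PBS. Astrocytes gave Fabp5 -6.25 to 0.86, Abca1 -0.030 to 0.15 and Npc2 -1.15 to 1.18 on the log2 scale for 5xFAD_Ab3FTnAu against 5xFAD_PBS. Oligodendrocytes gave Lpl -1.09 to 0.41, Fabp5 -0.54 to 0.43, Abca1 -0.15 to 0.048, Abcg1 -0.091 to 0.24 and Npc1 -0.026 to 0.20 on the log2 scale for 5xFAD_Ab3FTnAu against 5xFAD_PBS. Neurons gave Fabp5 -0.42 to 0.13 on the log2 scale for 5xFAD_Ab3FTnAu against 5xFAD_PBS. Microglia gave Lpl 2.75 to 7.53, Abca1 -0.094 to 0.33, Npc2 -0.11 to 0.012, Soat1 -0.20 to 0.37, Apoe -0.81 to 0.71 and Trem2 -1.76 to 0.87 on the log2 scale for 5xFAD_Ab3FTnAu against WT_PBS. Astrocytes gave Abca1 -0.056 to 0.50 and Soat1 -0.67 to 0.089 on the log2 scale for 5xFAD_Ab3FTnAu against WT_PBS. Oligodendrocytes gave Lpl -0.66 to 0.85, Npc1 -0.068 to 0.30 and Npc2 -0.89 to 0.038 on the log2 scale for 5xFAD_Ab3FTnAu against WT_PBS. Neurons gave Abca1 -0.0015 to 0.059, Abcg1 -0.016 to 0.17 and Npc2 -0.24 to 0.15 on the log2 scale for 5xFAD_Ab3FTnAu against WT_PBS. The difference between classes ranged likewise. Microglia minus astrocytes gave Abca1 -0.85 to 0.14 and Npc1 -0.30 to 0.52 for 5xFAD_PBS against WT_PBS. Microglia minus oligodendrocytes gave Abcg1 -0.34 to 0.062, Npc1 -0.74 to 0.24 and Soat1 -0.20 to 0.93 for 5xFAD_PBS against WT_PBS. Microglia minus neurons gave Lpl 2.97 to 4.44, Abca1 -0.30 to 0.22 and Npc1 -0.46 to 0.24 for 5xFAD_PBS against WT_PBS. Microglia minus astrocytes gave Npc2 -1.40 to 0.067 for 5xFAD_Ab3FTnAu against 5xFAD_PBS. Microglia minus oligodendrocytes gave Soat1 -0.011 to 0.31 for 5xFAD_Ab3FTnAu against 5xFAD_PBS. Microglia minus neurons gave Abca1 -0.081 to 0.32 for 5xFAD_Ab3FTnAu against 5xFAD_PBS. Microglia minus astrocytes gave Abca1 -0.54 to 0.43 and Soat1 -0.40 to 0.84 for 5xFAD_Ab3FTnAu against WT_PBS. Microglia minus oligodendrocytes gave Abca1 -0.63 to 0.13, Npc2 -0.059 to 0.85 and Soat1 -0.035 to 1.09 for 5xFAD_Ab3FTnAu against WT_PBS. Microglia minus neurons gave Abca1 -0.17 to 0.35 and Npc2 -0.21 to 0.087 for 5xFAD_Ab3FTnAu against WT_PBS.

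Depth limits the microglia of 5xFAD_Ab3FTnAu most, at 42661 and 103043 UMIs in all, where 1 UMI is a large step and Fabp5, Plin2 and Lipa could not be tested. With 2 samples a group, a difference that missed the threshold is not shown to be absent.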

Other observations

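Levels of the genes also varied among the 22 neuron clusters described with Lpl, with no test. Abca1 reached at most 35.1 CPM in them (median 14.5), and Abcg1 ranged from 20.7 to 57.0 CPM (median 33.2). Npc1, the lysosomal cholesterol exporter, ranged less, from 32.3 to 63.9 CPM (median 44.1). Soat1 ranged from 12.6 to 32.1 CPM, Fabp5 from 6.93 to 28.0 CPM, Npc2 from 6.93 to 22.0 CPM and Lipa from 5.28 to 22.1 CPM.

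Oligodendrocyte precursors, a class outside the 4 compared, held 1049 cells. Abca1 was at 184 ± 31.5 CPM there and Npc1 at 130 ± 19.4 CPM (SD over 6 samples), Abcg1 at 78.5 ± 11.6 CPM, Soat1 at 36.5 ± 16.0 CPM and Lpl at 6.23 ± 4.91 CPM from 11 UMIs.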
